A study of Mus musculus with 40 samples.

Results

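Bile acid synthesis and transport was followed through 10 mouse genes: Cyp7a1, Cyp8b1, Cyp27a1, Cyp7b1, Baat, Abcb11, Abcb4, Slc10a1, Nr1h4 and Nr0b2. Every probe whose platform annotation carried one of these symbols was taken, which gave 12 of the 25697 probes and 10 of the 16593 genes in the value table. Cyp27a1 had 3 probes and each other gene had 1. The measurement was RNA from whole liver of male C57BL/6J mice on Illumina BeadChip arrays, with 40 arrays in 6 groups. The groups crossed 3 feeding regimens with 2 diets: calorie restriction on the WIS diet (CR-WIS, 10 arrays), calorie restriction on the NIA diet (CR-NIA, 9), once-daily meals on WIS (MF-WIS, 4), once-daily meals on NIA (MF-NIA, 6), free feeding on WIS (AL-WIS, 6) and free feeding on NIA (AL-NIA, 5). WIS was a purified diet with 3.927 kcal/g, in which sucrose gave 46% and fat 24.4% of the energy. The NIA diet held 3.418 kcal/g, with sucrose giving 7.6% and fat 17.7% of the energy.

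All mice arrived at 6 weeks of age and started their diet at 5 months. CR and MF mice received their food once a day at 3 pm, and their portions were fixed at 14 months. CR mice were restricted by 30% and found their food on the cage floor, whereas MF and AL mice ate from the hopper. MF-NIA mice were matched in calories to both AL-WIS and MF-WIS mice, and AL-NIA mice ate the most. The age and the hour at which livers were taken are not given in the labels used here, so the time since the last meal cannot be told apart from the regimen. Nothing in the labels says outright that each array is a separate mouse, so p-values measure the spread between arrays, and the 4 to 10 arrays in a group limit their precision.

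Bile acids are made from cholesterol in hepatocytes. The classic route starts with Cyp7a1 and is steered towards cholic acid by Cyp8b1, and the alternative route runs through Cyp27a1 and Cyp7b1. Baat joins the acids to taurine or glycine, Abcb11 pumps them into the bile canaliculus, Abcb4 moves the phosphatidylcholine that accompanies them, and Slc10a1 takes returning bile acids up from portal blood. Nr1h4 encodes FXR, the bile acid receptor of the nucleus, and its target Nr0b2 encodes SHP, a co-repressor that acts on Cyp7a1 and Cyp8b1. Cyp7a1 transcription in mouse liver also follows the time of day and of feeding.

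Levels are given in log2 units above or below the mean of all probes on the same array, obtained from the deposited per-array scores. Each array had been divided by its own SD, and all scores were then multiplied by 1 constant. A difference of 1 unit is therefore about a 2-fold difference, and the fold values below are approximate. Levels of different probes are not set against each other. A probe passed the test when its adjusted p in limma was under 0.05, adjusted over all 10659 detected probes of 7958 genes. Of the 12 probes 11 entered the test. Of these, 10 were detected on 34 of the 34 arrays whose detection values could be used, and Slc10a1 was detected on 32.

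The hepatocyte marker list (13 of 17 genes measured) averaged between 5.19 and 6.77 over the arrays, with Fgb and Tat detected on none. Arrays of 1 group correlated at 0.918 or more, except within AL-WIS, where the lowest pair reached 0.791. AL-WIS replicate 1 stood apart from the other AL-WIS arrays. Its macrophage and Kupffer cell list (11 of 15 genes measured, Cd5l detected on none) averaged 4.83, against 1.21 to 2.50 in the other AL-WIS arrays, and its hepatocyte list averaged 5.19, against 5.64 to 6.23. It lay at 90.4 on the first principal component, which held 29.1% of the variance, with the next array at 22.6. In MF-WIS replicate 4 the endothelial list averaged -0.11, against 0.76 to 0.98 in the other MF-WIS arrays. CR-NIA replicate 1 was the 1 array among 35 whose scores matched no signal column of its group. CR-NIA had 8 signal columns for 9 arrays, so 1 array had to lack a match. AL-NIA had the reverse, 6 signal columns for 5 arrays, and no array was compared with those columns. In CR-NIA replicate 1 the macrophage and Kupffer cell list averaged 1.79, against 0.40 to 1.12 in the other CR-NIA arrays. Its stellate cell and fibroblast list averaged 0.81, against 0.12 to 0.56, and it lay at 12.4 on the first component, against -22.1 to -10.8. The AL-NIA arrays spanned -5.79 to 19.9 on that component and 0.94 to 2.13 in the macrophage and Kupffer cell list. Whether CR-NIA replicate 1 belongs to another group was not tested. Without CR-NIA replicate 1, 728 probes passed in CR-WIS against CR-NIA livers, against 348 with it. Tests below are given with and without AL-WIS replicate 1 where it matters. Because all groups share 1 estimate of the spread, leaving it out also changes p-values between NIA groups.

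Among the bile acid genes, Cyp7a1 and Nr1h4 were higher in CR than in AL livers and Abcb11 was lower once AL-WIS replicate 1 was left out. Averaged over both diets, Cyp7a1 was 2.20-fold and Nr1h4 1.51-fold higher in CR. Cyp7a1 was 2.19-fold lower on WIS than on NIA averaged over the regimens, and Abcb4 was 1.30-fold higher in CR-WIS than in CR-NIA livers. These 2 calls were lost in 23 and 7 of the 40 omissions of a single array. Cyp8b1, Cyp7b1, Baat and Slc10a1 passed the test in no comparison with all arrays or without AL-WIS replicate 1, and Nr0b2 was not detected.

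**Figure D1:**
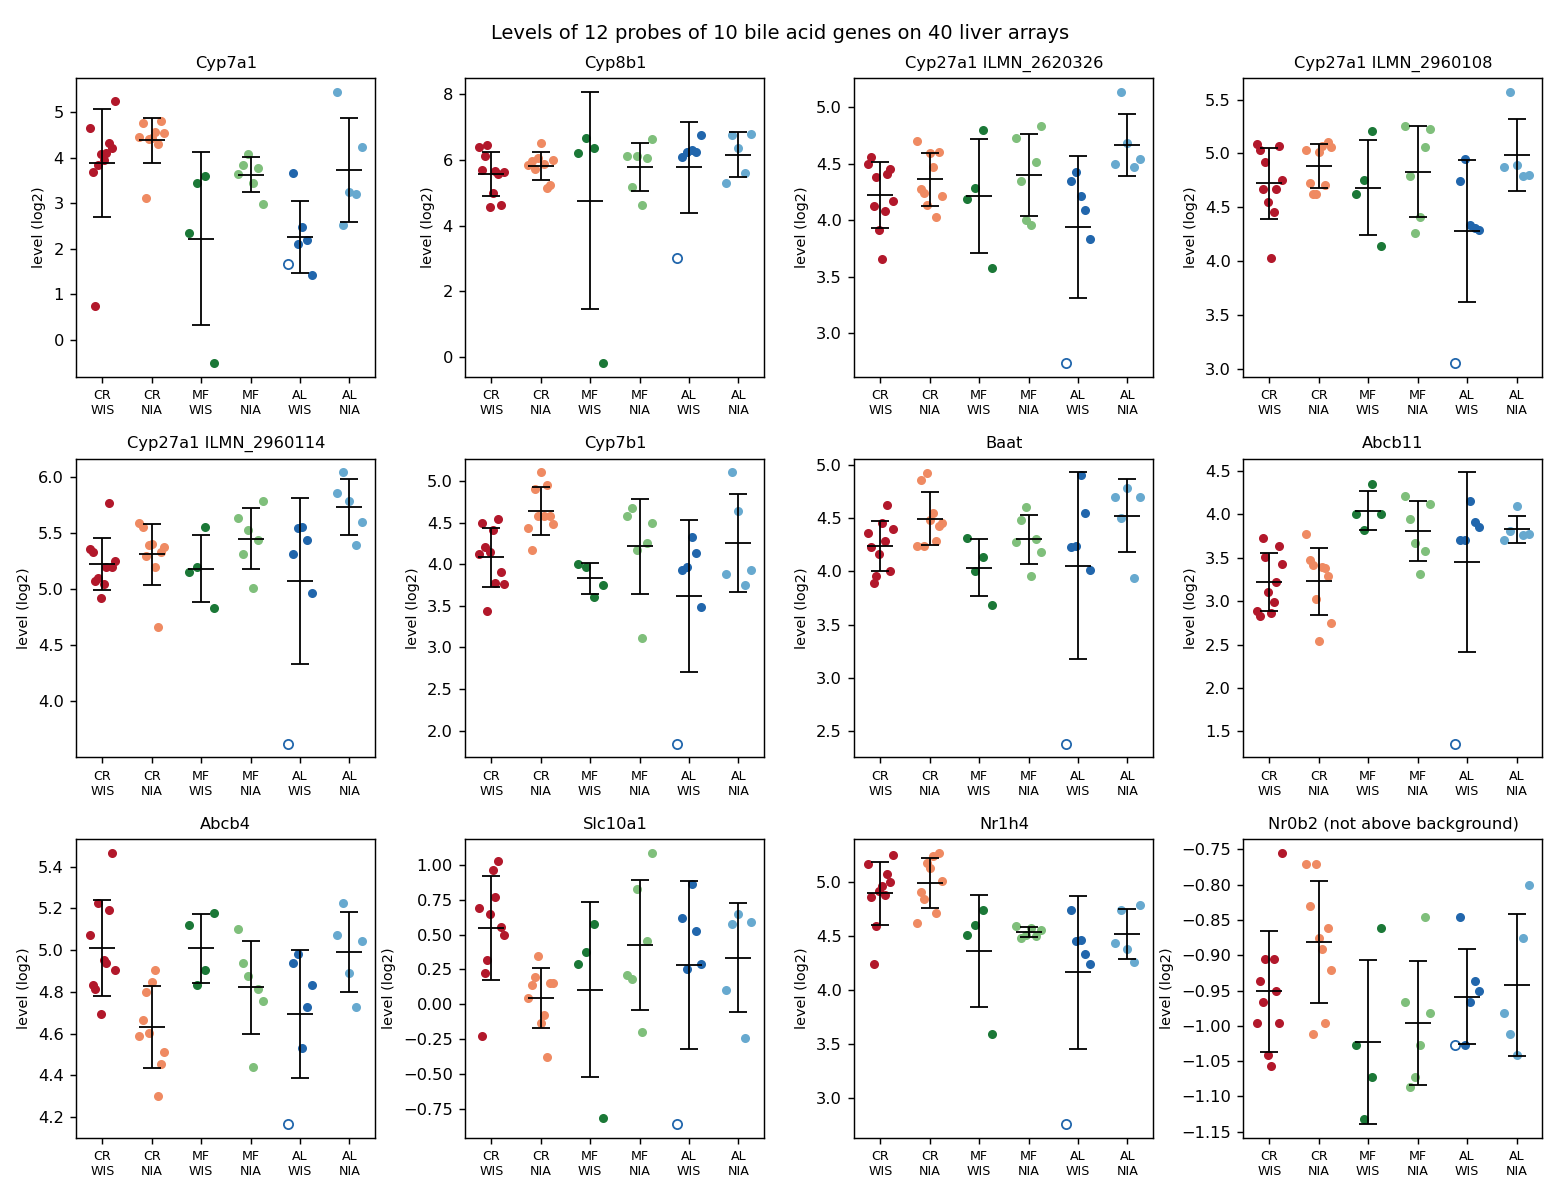
Level of each of the 12 probes (log2 units relative to the array mean) on each of the 40 arrays, by group. Bars show the group mean and SD, and the open circle is AL-WIS replicate 1. It lies lowest of the AL-WIS arrays for Cyp8b1, all 3 Cyp27a1 probes, Cyp7b1, Baat, Abcb11, Abcb4, Slc10a1 and Nr1h4, and MF-WIS replicate 4 lies lowest of all 40 arrays for Cyp7a1 and Cyp8b1.

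Cyp7a1 (probe ILMN_2604383) encodes the rate-limiting enzyme of the classic route. In CR-WIS livers its lowest, median and highest levels were 0.74, 4.09 and 5.25, and in CR-NIA livers they were 3.13, 4.47 and 4.82. The MF-WIS livers had 2.36, 3.46, 3.59 and -0.51, and MF-NIA livers ranged between 2.99 and 4.08 with a median of 3.72. AL-WIS livers spanned 1.43 to 3.67 with a median of 2.15, and the AL-NIA livers had 5.45, 2.52, 3.26, 3.20 and 4.24. The AL-WIS arrays were low as a group, whereas the AL-NIA arrays were spread so widely that every CR-NIA array lay inside their range. Single arrays far below their group were CR-WIS replicate 3, at 0.74, CR-NIA replicate 3, at 3.13, and MF-WIS replicate 4.

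Cyp7a1 averaged 3.89 ± 1.19 in CR-WIS livers (SD, n = 10) and 2.26 ± 0.79 in AL-WIS livers (SD, n = 6), a 3.09-fold difference. The log2 difference was 1.63 with an SE of 0.50, a 95% interval of 0.62 to 2.63 and an adjusted p of 0.0285 in limma. Of the 10 CR-WIS arrays, 9 lay above every AL-WIS array and 1 lay below all of them. In the same comparison 13.1% of all probes passed the test, and 2 of the 11 bile acid probes did. The Cyp7a1 difference was 1.51 without AL-WIS replicate 1, with an adjusted p of 0.0835, and it also missed the threshold without AL-WIS replicate 5 or 6 or CR-WIS replicate 1 or 10. On the NIA diet Cyp7a1 averaged 4.39 ± 0.50 in CR livers and 3.74 ± 1.14 in AL livers (SD, n = 9 and 5), a difference of 0.65 with a 95% interval of -0.44 to 1.74 that did not pass the test in limma (adjusted p = 0.470).

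Taken over both diets, Cyp7a1 rose by 1.14 ± 0.37 (SE) in CR against AL livers, with an adjusted p of 0.0203, and 26.2% of all probes passed this averaged test. The averaged difference was 1.08 without AL-WIS replicate 1 and still passed (adjusted p = 0.0324). The CR response of Cyp7a1 differed between the diets by 0.98 ± 0.73 (SE), which was not distinguishable from 0 (adjusted p = 0.629).

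The averaged diet difference of Cyp7a1 was close to the threshold. It fell by 1.13 ± 0.32 (SE) on WIS against NIA averaged over the regimens, with an adjusted p of 0.0441, in a comparison where 2.83% of all probes and 1 of the 11 bile acid probes passed. Within the regimens the WIS minus NIA difference was -0.50 in CR, -1.41 in MF and -1.47 in AL livers, and none of the 3 passed on its own (adjusted p between 0.326 and 0.617). The MF value was -0.50 without MF-WIS replicate 4, and the CR value was -0.15 without CR-WIS replicate 3. Of the 6 AL-WIS arrays, 5 lay below every AL-NIA array. The averaged diet difference did not pass without AL-WIS replicate 1 (-1.09, adjusted p = 0.0520) or without MF-WIS replicate 4 (-0.82, adjusted p = 0.113), and in all it lost the call in 23 of the 40 omissions of a single array and in 4 of 10 other settings.

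Against meal-fed mice, Cyp7a1 was 1.66 higher in CR-WIS than in MF-WIS livers (adjusted p = 0.0864), with 9 of 10 CR-WIS arrays above every MF-WIS array. Without MF-WIS replicate 4 that difference was 0.75. CR-NIA livers were 0.75 higher than MF-NIA livers, with an adjusted p of 0.327 and 8 of 9 CR-NIA arrays above every MF-NIA array. MF and AL livers differed by -0.04 on WIS and -0.10 on NIA, with 95% intervals of -1.30 to 1.22 and -1.28 to 1.08. Without MF-WIS replicate 4 the WIS difference was 0.87, with a 95% interval of -0.31 to 2.05.

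Cyp8b1 (ILMN_2627744), the sterol hydroxylase that sets the share of cholic acid, varied within groups by an SD of 0.42 to 3.31, the widest range of any of the 12 probes. Its group means were 5.57 in CR-WIS, 5.82 in CR-NIA, 4.76 in MF-WIS, 5.79 in MF-NIA, 5.77 in AL-WIS and 6.17 in AL-NIA livers. The MF-WIS and AL-WIS means each held 1 deviating array. MF-WIS replicate 4 had -0.20, against 6.22, 6.67 and 6.36 in the other MF-WIS livers, and AL-WIS replicate 1 had 3.00, against 6.08 to 6.76 in the other AL-WIS livers. CR minus AL was -0.20 on WIS and -0.34 on NIA, with adjusted p of 0.860 and 0.792, and the 95% intervals ran from -1.44 to 1.03 and from -1.68 to 0.99. Without AL-WIS replicate 1 the WIS difference was -0.76 (adjusted p = 0.475), with 7 of 10 CR-WIS arrays below every remaining AL-WIS array. In MF-WIS replicate 4 Cyp7a1, Cyp8b1, every Cyp27a1 probe, Baat, Nr1h4 and Slc10a1 were each the lowest of their group, whereas Abcb4 was the highest of its group at 5.18 and Abcb11 was at 4.001.

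Cyp27a1 starts the alternative route as a mitochondrial sterol hydroxylase, and its 3 probes gave similar patterns. ILMN_2620326 averaged 4.22 in CR-WIS, 4.36 in CR-NIA, 4.21 in MF-WIS, 4.40 in MF-NIA, 3.94 in AL-WIS and 4.67 in AL-NIA livers. With all arrays the 3 probes had their highest group mean in AL-NIA and their lowest in AL-WIS. The WIS minus NIA differences in AL livers were -0.72, -0.71 and -0.66, with adjusted p between 0.199 and 0.253. These 3 differences shared AL-WIS replicate 1, in which every Cyp27a1 probe was the lowest of its group, and were -0.48, -0.46 and -0.37 without it, in the order of the probes ILMN_2620326, ILMN_2960108 and ILMN_2960114.

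No Cyp27a1 probe passed with all arrays in the fit used here, and ILMN_2960114 did so without AL-WIS replicate 1. It averaged 5.31 ± 0.27 in CR-NIA livers and 5.73 ± 0.25 in AL-NIA livers (SD, n = 9 and 5), a log2 difference of -0.42. The adjusted p was 0.168 with all arrays and 0.0335 without AL-WIS replicate 1. The difference also passed with all arrays under array weights (-0.41, adjusted p = 0.0173). The other 2 Cyp27a1 probes differed by -0.30 and -0.10 in that comparison and passed in neither of the first 2 fits. Under median centring with scaling by the median absolute deviation, all 3 probes passed as higher in CR-NIA than in MF-NIA livers and as lower in MF-NIA than in AL-NIA livers. Of all 10659 probes, 4276 and 2189 passed in these directions under that scaling.

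Cyp7b1 (ILMN_2601215), the oxysterol hydroxylase of the alternative route, averaged 4.08 in CR-WIS, 4.64 in CR-NIA, 3.83 in MF-WIS, 4.21 in MF-NIA, 3.62 in AL-WIS and 4.26 in AL-NIA livers. Its WIS mean was the lower one under each of the 3 regimens. The averaged WIS minus NIA difference was -0.53 ± 0.17 (SE), with an adjusted p of 0.0683. CR minus AL was 0.47 on WIS and 0.38 on NIA (adjusted p = 0.223 and 0.400), and the WIS value was 0.11 without AL-WIS replicate 1.

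Baat (ILMN_1259009), the enzyme that conjugates bile acids, averaged 4.24 in CR-WIS, 4.50 in CR-NIA, 4.03 in MF-WIS, 4.30 in MF-NIA, 4.05 in AL-WIS and 4.52 in AL-NIA livers. CR minus AL was 0.18 on WIS and -0.03 on NIA, and WIS minus NIA averaged -0.33 ± 0.13 (SE, adjusted p = 0.159). The AL-WIS mean was 4.39 without replicate 1, whose own level was 2.39, and CR minus AL on WIS was then -0.15, the opposite sign, and the averaged diet difference -0.22.

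Abcb11 (ILMN_2758509), the bile salt export pump, was low in both CR groups. Its lowest, median and highest levels were 2.82, 3.16 and 3.73 in CR-WIS livers and 2.54, 3.38 and 3.77 in CR-NIA livers. The MF-WIS livers had 4.001, 3.82, 4.35 and 4.001, and MF-NIA livers spanned 3.31 to 4.21 with a median of 3.80. AL-WIS livers spanned 1.36 to 4.15 with a median of 3.77, and the AL-NIA livers had 3.70, 3.80, 4.09, 3.76 and 3.77. All 10 of 10 CR-WIS arrays lay below every MF-WIS array and 8 of 9 CR-NIA arrays lay below every AL-NIA array. The exception was CR-NIA replicate 1, at 3.77, the array whose scores matched no signal column of its group. The AL-WIS range opened downwards through replicate 1 alone, since the other AL-WIS arrays lay between 3.70 and 4.15.

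With all arrays none of these Abcb11 differences passed the test. CR minus AL was -0.23 on WIS (adjusted p = 0.575) and -0.60 on NIA (adjusted p = 0.137), and CR minus MF was -0.82 on WIS (adjusted p = 0.0871) and -0.58 on NIA (adjusted p = 0.105). Leaving out AL-WIS replicate 1 gave an SD of 0.19 in AL-WIS in place of 1.04, and all 4 differences then passed. In that fit Abcb11 fell by 0.64 ± 0.16 (SE) in CR-WIS against AL-WIS livers, with an adjusted p of 0.0219 and 9 of 10 CR-WIS arrays below every remaining AL-WIS array. The other 3 were -0.60 in CR-NIA against AL-NIA (adjusted p = 0.0128), -0.82 in CR-WIS against MF-WIS (adjusted p = 0.00658) and -0.58 in CR-NIA against MF-NIA livers (adjusted p = 0.00689). Averaged over the diets the CR minus AL difference was -0.62, or 1.54-fold lower, with an adjusted p of 0.000274. The lower level in CR did not hold under every scaling: with each array centred on its median and scaled by its median absolute deviation, all arrays included, Abcb11 differed by 0.04 in CR-WIS against AL-WIS and by 0.45 in CR-NIA against MF-NIA livers, neither passing the test.

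No Abcb11 difference between MF and AL livers passed the test. MF minus AL was -0.02 on NIA, with a 95% interval of -0.61 to 0.57. On WIS it was 0.60 with all arrays and 0.18 without AL-WIS replicate 1, with 95% intervals of -0.03 to 1.22 and -0.23 to 0.59. CR-WIS and CR-NIA means were 3.22 and 3.23.

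**Figure D2:**
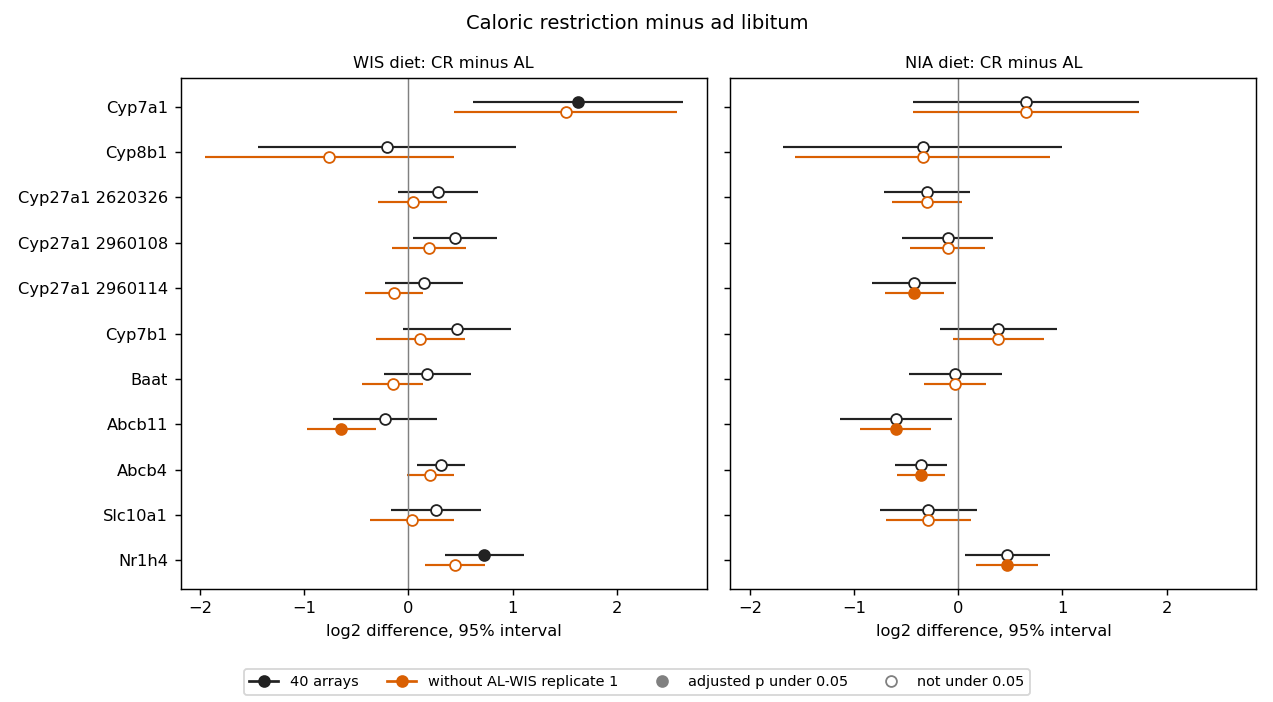
CR minus AL difference (log2, x axis) of the 11 tested probes on the WIS diet (left) and the NIA diet (right), with 95% intervals, for all 40 arrays (black) and without AL-WIS replicate 1 (orange). Filled points have an adjusted p under 0.05. With all arrays Cyp7a1 (1.63) and Nr1h4 (0.73) are filled on WIS and none on NIA, and without AL-WIS replicate 1 Abcb11 is filled on both diets.

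Abcb4 (ILMN_2648742), the canalicular phosphatidylcholine floppase, differed between the diets within CR. Its lowest, median and highest levels were 4.70, 4.94 and 5.47 in CR-WIS livers and 4.30, 4.60 and 4.91 in CR-NIA livers. The MF-WIS livers had 5.12, 4.83, 4.91 and 5.18, and MF-NIA livers spanned 4.44 to 5.10 with a median of 4.85. AL-WIS livers spanned 4.17 to 4.98 with a median of 4.78, and the AL-NIA livers had 5.07, 5.22, 4.89, 4.73 and 5.04. CR-NIA livers had the lowest mean of the 6 groups. Of the 10 CR-WIS arrays, 6 lay above every CR-NIA array.

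Abcb4 averaged 5.01 ± 0.23 in CR-WIS and 4.63 ± 0.20 in CR-NIA livers (SD, n = 10 and 9), a difference of 0.38 with an SE of 0.10, a 95% interval of 0.17 to 0.59 and an adjusted p of 0.0304. In this comparison 3.26% of all probes and 1 of the 11 bile acid probes passed. The call ended when any of CR-NIA replicates 4, 7, 8 and 9 or CR-WIS replicates 4, 8 and 9 was left out (highest adjusted p = 0.0723), and the difference was 0.02 with median centring and scaling by the median absolute deviation. CR minus AL pointed in opposite directions on the 2 diets, 0.31 ± 0.12 on WIS (adjusted p = 0.0623) and -0.36 ± 0.12 on NIA (SE, adjusted p = 0.0531), and without AL-WIS replicate 1 the WIS value was 0.21 and the NIA value passed (adjusted p = 0.0261). The difference between the diets in the CR minus AL response was 0.67 ± 0.17 (SE), with an adjusted p of 0.124, while 0.0281% of all probes passed that test. Without CR-NIA replicate 1 its adjusted p was 0.0487, in a fit where 107 of all probes passed, against 3 with all arrays.

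Slc10a1 (ILMN_2600147), the sodium-dependent uptake transporter, averaged 0.55 in CR-WIS, 0.05 in CR-NIA, 0.11 in MF-WIS, 0.43 in MF-NIA, 0.28 in AL-WIS and 0.34 in AL-NIA livers. Its signal was close to the detection limit, with a median of 347 units. The widest group difference between the diets was 0.50 ± 0.19 (SE) in CR-WIS against CR-NIA livers, with an adjusted p of 0.144. CR minus AL was 0.27 on WIS and -0.29 on NIA (adjusted p = 0.424 and 0.459), and the WIS value was 0.04 without AL-WIS replicate 1.

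Nr1h4 (ILMN_2727013), the gene of the bile acid receptor FXR, was high in both CR groups. Its lowest, median and highest levels were 4.24, 4.94 and 5.25 in CR-WIS livers and 4.62, 5.01 and 5.27 in CR-NIA livers. The MF-WIS livers had 4.51, 4.60, 4.74 and 3.59, and MF-NIA livers lay between 4.48 and 4.59 with a median of 4.54. AL-WIS livers spanned 2.76 to 4.74 with a median of 4.39, and the AL-NIA livers had 4.44, 4.74, 4.38, 4.26 and 4.79. Of the CR-WIS arrays 8 of 10 lay above every AL-WIS array, as did 7 of 9 CR-NIA arrays above every AL-NIA array and 9 of 9 CR-NIA arrays above every MF-NIA array. The lowest CR-NIA array was replicate 1, at 4.62. The MF-NIA arrays differed among themselves by little, with an SD of 0.04.

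Nr1h4 averaged 4.89 ± 0.29 in CR-WIS and 4.17 ± 0.71 in AL-WIS livers (SD, n = 10 and 6). It rose by 0.73 with an SE of 0.19, a 95% interval of 0.35 to 1.11 and an adjusted p of 0.0115, a 1.66-fold difference. The AL-WIS mean was 4.45 ± 0.19 without replicate 1 (SD, n = 5) and the difference 0.45, with an adjusted p of 0.0589. On NIA the CR minus AL difference was 0.47 ± 0.20 (SE), with an adjusted p of 0.123 for all arrays and of 0.0237 without AL-WIS replicate 1. None of the 11 bile acid probes passed in CR-NIA against AL-NIA livers in limma with all arrays, where 11.6% of all probes did.

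Averaged over the diets Nr1h4 rose by 0.60 ± 0.14 (SE) in CR against AL livers, with an adjusted p of 0.00168. The rise was 0.46 without AL-WIS replicate 1, and the adjusted p was 0.00134. Against MF livers the differences were 0.53 on WIS (adjusted p = 0.145) and 0.45 on NIA (adjusted p = 0.0916), and both passed without AL-WIS replicate 1 (adjusted p = 0.0351 and 0.0146). The WIS value was 0.27 without MF-WIS replicate 4 and did not pass. No difference of Nr1h4 between the diets passed, the averaged one being -0.21 ± 0.12 (SE, adjusted p = 0.369) and -0.11 without AL-WIS replicate 1.

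Nr0b2 (ILMN_2717630), the gene of SHP, was not well above background on any of the 34 arrays with detection values. Its signals lay between 115 and 214 units, and its smallest detection p was 0.160. It was left out of the tests, and its levels of -1.13 to -0.75 give no order of the groups.

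The promoters of Nr1h4 and Abcb11 are shown because these genes differed between CR and AL livers in opposite directions, averaged over the diets. The Abcb11 difference passed without AL-WIS replicate 1 but not with all arrays in the fit used here. Both windows also hold the hexamer AGGTCA, the core of many nuclear receptor sites, in reverse. Of the 10 genes, 7 had a promoter entry in the RefSeq table (GRCm38.p6), in 8 windows of 300 bases around the annotated start. Capitals mark the motif matches, TGACCT being AGGTCA read from the other strand and GTTAAT a core of HNF1 sites. The Nr1h4 window lies at chr10:89506609-89506908 and the Abcb11 window at chr2:69342567-69342866, both on the minus strand and written 5′ to 3′ along the gene.
Nr1h4: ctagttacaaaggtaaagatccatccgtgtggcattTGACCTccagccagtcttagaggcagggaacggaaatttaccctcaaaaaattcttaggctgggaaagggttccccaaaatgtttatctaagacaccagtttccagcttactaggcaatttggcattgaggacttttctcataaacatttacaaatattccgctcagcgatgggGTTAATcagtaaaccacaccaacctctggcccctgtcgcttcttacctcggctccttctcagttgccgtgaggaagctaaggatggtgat
Abcb11: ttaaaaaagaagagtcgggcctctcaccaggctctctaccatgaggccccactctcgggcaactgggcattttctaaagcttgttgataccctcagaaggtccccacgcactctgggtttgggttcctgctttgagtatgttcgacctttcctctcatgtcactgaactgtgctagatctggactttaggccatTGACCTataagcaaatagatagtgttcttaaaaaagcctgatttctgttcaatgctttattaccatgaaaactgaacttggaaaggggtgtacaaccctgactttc
In the Nr1h4 window TGACCT begins at -214 and GTTAAT at -40 from the start, and in the Abcb11 window TGACCT begins at -56. AGGTCA on either strand was held by 16.3% of the 32851 promoters in the table, and GTTAAT by 7.1%. Slc10a1 held AGGTCA at -87 in 1 of its windows and Nr0b2 held CACGTG, the E-box of clock factors, at -195, a motif in 7.15% of promoters. Only exact matches were searched, on both strands. No window of the 7 genes held an exact inverted or direct repeat of AGGTCA with a spacer of 1 base (0.00913% and 0.0396% of promoters). None held CAAGGTCA (1.56%), TTANGTAA (2.32%) or TGTTTAC (3.65%). Exact repeats are so rare that their absence says little about receptor sites. Repeats with a mismatched base were not searched, and the Abcb11 window holds such an inverted repeat, aggccatTGACCT, at the marked hexamer. Abcb4, Cyp27a1 and Cyp8b1 held none of the motifs. CAAGGTCA and both repeats contain AGGTCA.

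The CR minus AL differences of the 11 tested probes were counted by sign on each diet. On WIS 9 of 11 probes were higher in CR than in AL livers, with a median difference of 0.28, against -0.01 over all probes, and without AL-WIS replicate 1 it was 7 of 11, with a median of 0.04. On NIA 3 of 11 were higher, with a median of -0.29, against -0.02 over all probes, but 7 of 11 were higher, with a median of 0.09, under median centring and scaling by the median absolute deviation. Without AL-WIS replicate 1, 4 bile acid probes passed on NIA (Abcb11, Nr1h4, Abcb4 and Cyp27a1 ILMN_2960114) where 16.2% of all probes passed, and 1 passed on WIS (Abcb11) where 4.87% did. Averaged over the diets, 2 of 11 passed with all arrays and 4 without AL-WIS replicate 1 (Abcb11, Nr1h4, Cyp7a1 and Cyp27a1 ILMN_2960114), where 24.9% of all probes passed.

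Median levels of most lists of other cells were lower in CR than in AL livers, without a test. The macrophage and Kupffer cell list had a median level of 0.83 in CR-WIS and 0.83 in CR-NIA livers, 0.92 in MF-WIS and 1.19 in MF-NIA livers, and 1.83 in AL-WIS and 1.66 in AL-NIA livers. The stellate cell and fibroblast list (10 of 11 genes measured) had medians of 0.29 in CR-WIS and 0.30 in CR-NIA livers, against 0.59 in AL-WIS and 0.52 in AL-NIA livers. The cholangiocyte, neutrophil and lymphocyte lists, with 3, 6 and 2 genes measured, also had lower medians in CR on both diets. The endothelial list did so on WIS (0.80 in CR against 0.96 in AL livers) but was higher in CR on NIA (0.78 against 0.71). The hepatocyte list had medians of 6.16 and 5.97 in CR-WIS and CR-NIA livers and of 5.98 and 6.05 in AL-WIS and AL-NIA livers. Their part in the results was not tested, and in whole liver fewer cells of a type and less RNA per cell cannot be told apart.

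Between MF and AL livers the calls depended on the scaling. With the scores as deposited, none of the 11 probes passed in limma in MF-NIA against AL-NIA livers, where 1.9% of all probes did, nor in MF-WIS against AL-WIS livers, where 0.0375% did. Under median centring with scaling by the median absolute deviation, 5 of the 11 passed in MF-NIA against AL-NIA livers and all 11 were lower, with a median of -1.16. Of all 10659 probes, 55 passed as higher and 2189 as lower there, so the lower levels were not particular to these genes. CR against MF compares 2 once-daily regimens that differ in the amount of food. With all arrays none of the 11 passed on NIA, where 18.8% of all probes did, or on WIS, where 3.34% did. Without AL-WIS replicate 1, Abcb11 and Nr1h4 passed on both diets, where 23.9% of all probes passed on NIA and 6.69% on WIS. CR-NIA and MF-NIA values share their MF arrays with the MF against AL comparison, and CR arrays enter both CR comparisons.

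**Figure D3:**
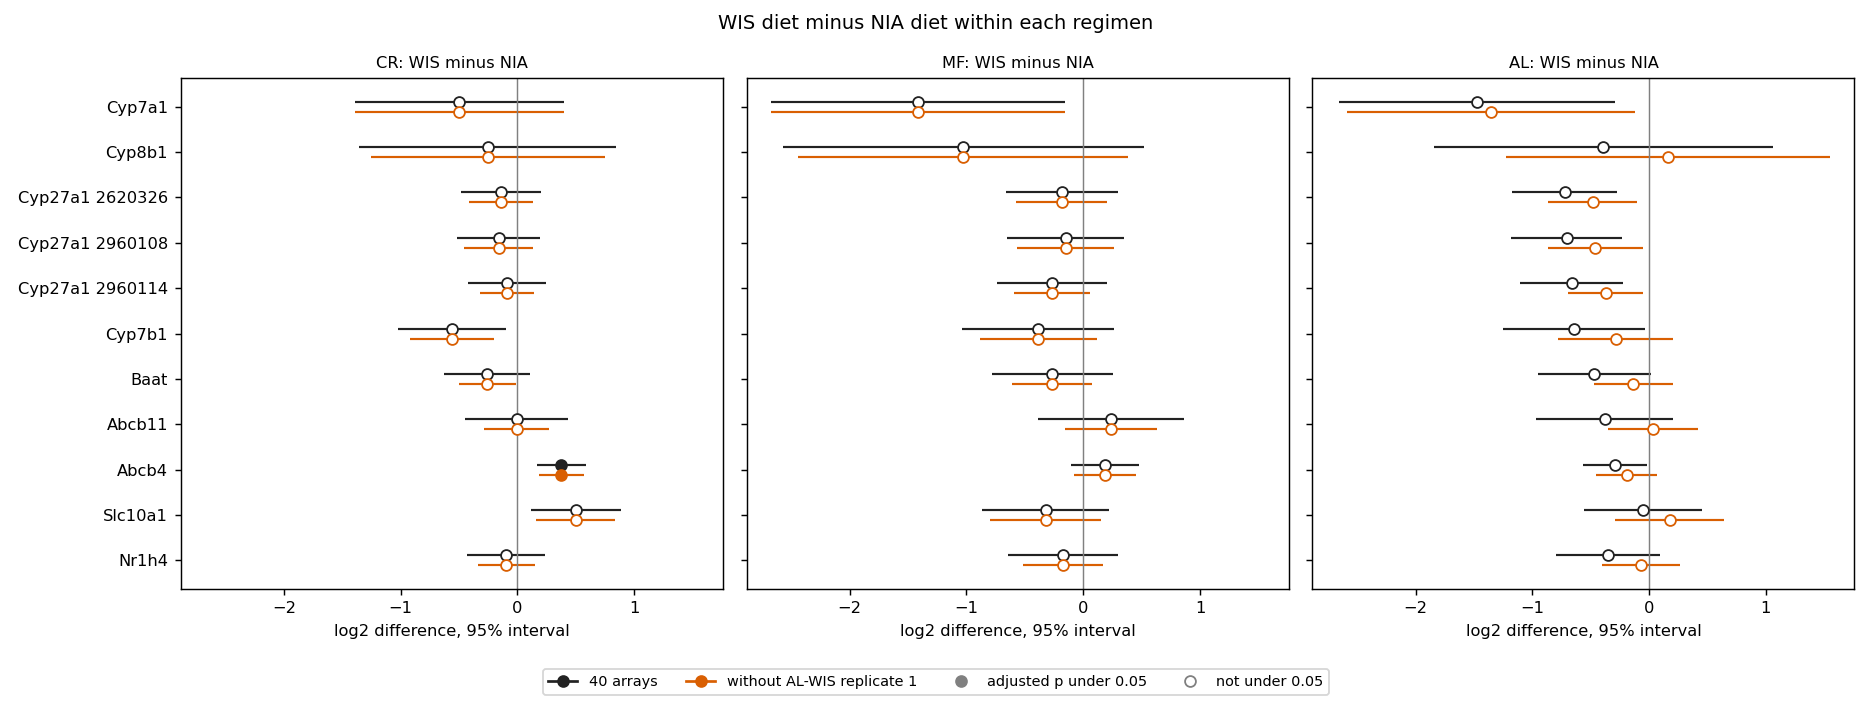
WIS minus NIA difference (log2, x axis) of the 11 tested probes in CR, MF and AL livers, with 95% intervals, for all 40 arrays (black) and without AL-WIS replicate 1 (orange), filled where the adjusted p is under 0.05. Abcb4 in CR livers (0.38) is the filled probe, and in AL livers all 11 black points lie below 0.

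The diet comparison of AL livers put all 11 probes lower on WIS than on NIA, with a median difference of -0.47, against 0.01 over all probes. None of the 11 passed after adjustment in limma, where 0.0469% of all probes did. Leaving out AL-WIS replicate 1, 8 of 11 were lower and the median was -0.19. In CR livers 9 of 11 were lower on WIS, with a median of -0.14, Abcb4 and Slc10a1 being the exceptions. In MF livers 9 of 11 were lower, with a median of -0.27, but 5 of 11 without MF-WIS replicate 4, with a median of 0.03. With all arrays none passed in MF livers, where 0 of all probes did, and 1 of the 11 and 1126 of all probes had an unadjusted p under 0.05. The differences between the diets in the MF minus AL and CR minus MF responses had no call among the 11 probes or among all probes, with 964 and 973 of all probes at an unadjusted p under 0.05.

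The other genes of bile acid metabolism were read from 3 lists, chosen with earlier results of these data known. Among 19 measured of 26 regulators, 7 rose and 1 fell in CR against AL livers averaged over the diets, where 26.2% of all probes passed, with a list median of 0.17, against -0.02 over all probes. Nfil3, a repressor of the circadian output pathway, fell by 1.67, and Dbp, a clock-driven activator of Cyp7a1 known in rodents, rose by 2.90, with SEs of 0.27 and 0.52 and adjusted p of 4.4e-05 and 0.000163. Nr1i2 (the receptor PXR) rose by 0.67 and Foxo1, a factor inhibited by insulin signalling, by 0.39. Dbp and Nfil3 are controlled by time of day, and their levels differed between CR and AL livers as Cyp7a1 did, and the part of the hour of collection was not tested.

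Within the diets, Nfil3, Dbp and Bhlhe40, a clock repressor, passed in CR-NIA against AL-NIA livers (-2.06, 2.98 and 0.57). There 2 of the 19 regulators rose and 1 fell, and 11.6% of all probes passed, so the count is not read as a result about the list. In CR-WIS against AL-WIS livers 5 rose and 1 fell, where 13.1% of all probes passed. Foxo1, Nr1i2, Dbp and Nr1i3 (the receptor CAR) were the 4 with the smallest p among the 5 that rose (0.52, 0.77, 2.81 and 0.997). With AL-WIS replicate 1 left out, 2 regulators rose and 1 fell in CR-WIS, where 4.87% of all probes passed. Against MF livers, Prox1 and Mafg, both repressors of bile acid synthesis genes in mice, fell by 0.46 and 0.39 in CR-NIA livers, and Nr1i3 rose by 1.09 in CR-WIS livers. Of all probes 18.8% and 3.34% passed in these comparisons. Foxo1 rose by 0.54 in MF-NIA against AL-NIA livers, and Ppara, the fatty acid receptor, fell by 0.39 on WIS against NIA averaged over the regimens. There 1.9% and 2.83% of all probes passed.

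Of 19 other transport genes 12 were measured. Abcg5, Abcg8, Abcc2 and Ephx1 rose in CR-WIS against AL-WIS livers by 1.06, 1.13, 0.60 and 0.64, with adjusted p between 0.0114 and 0.0449, which made 4 of 12 in a comparison where 13.1% of all probes passed. Abcg5 and Abcg8 together export cholesterol into bile, and Abcc2 exports conjugated organic anions. None of these 4 passed in CR-WIS against AL-WIS livers without AL-WIS replicate 1 (adjusted p between 0.0586 and 0.156), whereas Abcc2, Abcg5 and Abcg8 still passed averaged over the diets (0.30, 0.51 and 0.47). In that averaged fit 24.9% of all probes passed. The list median in the averaged comparison was 0.42 with all arrays and 0.27 without that array. Slco1a4, a sinusoidal organic anion carrier, fell by 0.73 on WIS against NIA averaged over the regimens (adjusted p = 0.0344), where 2.83% of all probes passed.

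Among 11 measured of 16 other synthesis and conjugation genes, Acox2, the peroxisomal oxidase that shortens the bile acid side chain, fell by 0.42 and Cyp2c70, which makes muricholic acids in mice, fell by 0.43 in CR against AL livers averaged over the diets. Slc27a2, an acyl-CoA synthetase and fatty acid transporter, rose by 0.47. With 1 of the 11 up and 2 down, where 26.2% of all probes passed, the list was called at about the rate of all probes. With AL-WIS replicate 1 left out, 3 fell and 0 rose, the third being Hsd3b7, which follows Cyp7a1 and Cyp7b1 in the pathway (-0.48), and 24.9% of all probes passed in that fit. Acox2 also fell by 0.61 in CR-NIA against AL-NIA livers (adjusted p = 0.0270), where 11.6% of all probes passed. The list median was 0.06 with all arrays.

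**Figure D4:**
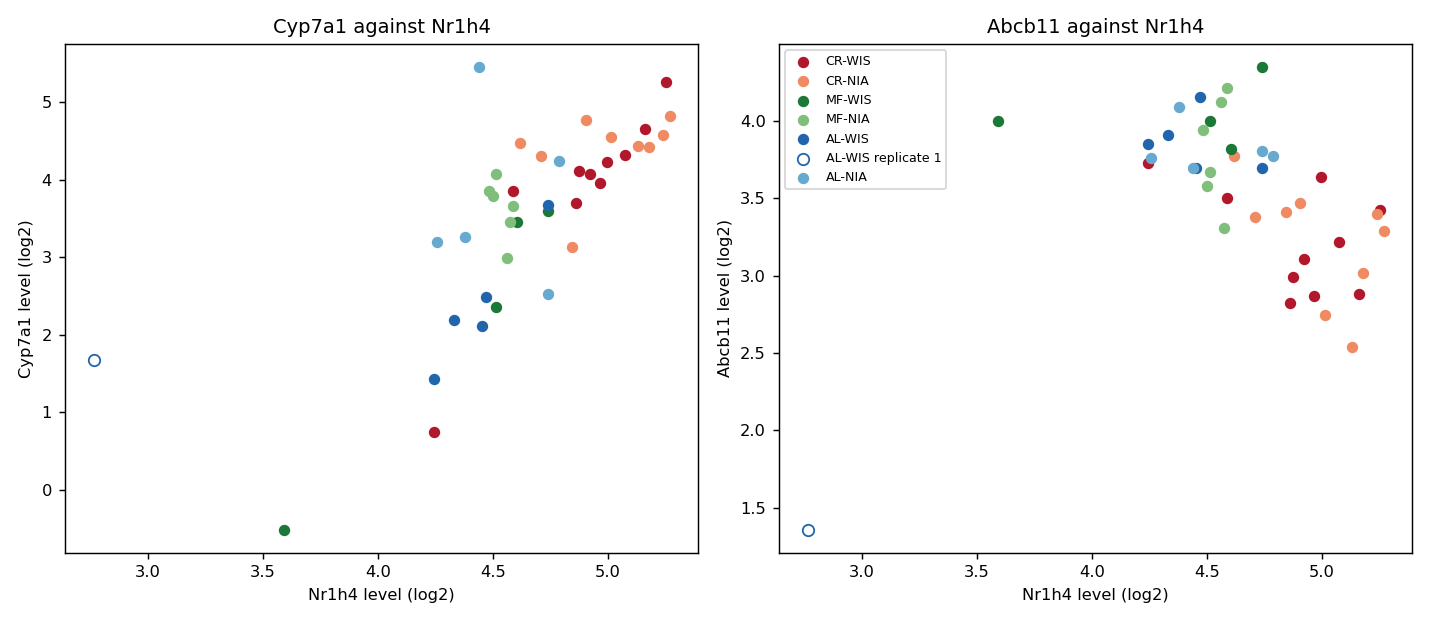
Levels (log2) of Cyp7a1 and Abcb11 against Nr1h4 on the arrays, coloured by group. Without AL-WIS replicate 1, Cyp7a1 runs with Nr1h4 (r = 0.78) and Abcb11 against it (r = -0.65), and the CR arrays lie at the high end of Nr1h4. Among those arrays MF-WIS replicate 4 is the lowest for both Cyp7a1 and Nr1h4.

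Levels of the members were also set against each other over the 39 arrays without AL-WIS replicate 1, as a description in which arrays share groups and scaling. Cyp7a1 and Nr1h4 had the highest pair correlation, at 0.78, and 0.73 after group means were removed. MF-WIS replicate 4 was the lowest of the 39 arrays for both genes, with Cyp7a1 at -0.51 and Nr1h4 at 3.59. CR-WIS replicate 3 was the lowest of its group for both, at 0.74 and 4.24. The correlation without these arrays was not computed. Abcb11 ran against Nr1h4 at -0.65 and against Cyp7a1 at -0.47, and within groups these were -0.27 and -0.19. With all 40 arrays the Abcb11 and Nr1h4 correlation was 0.03. Of the 36 pairs among 9 genes 27 were above 0, with a median of 0.22, while the median of members against all 7958 genes was -0.02.

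**Figure D5:**
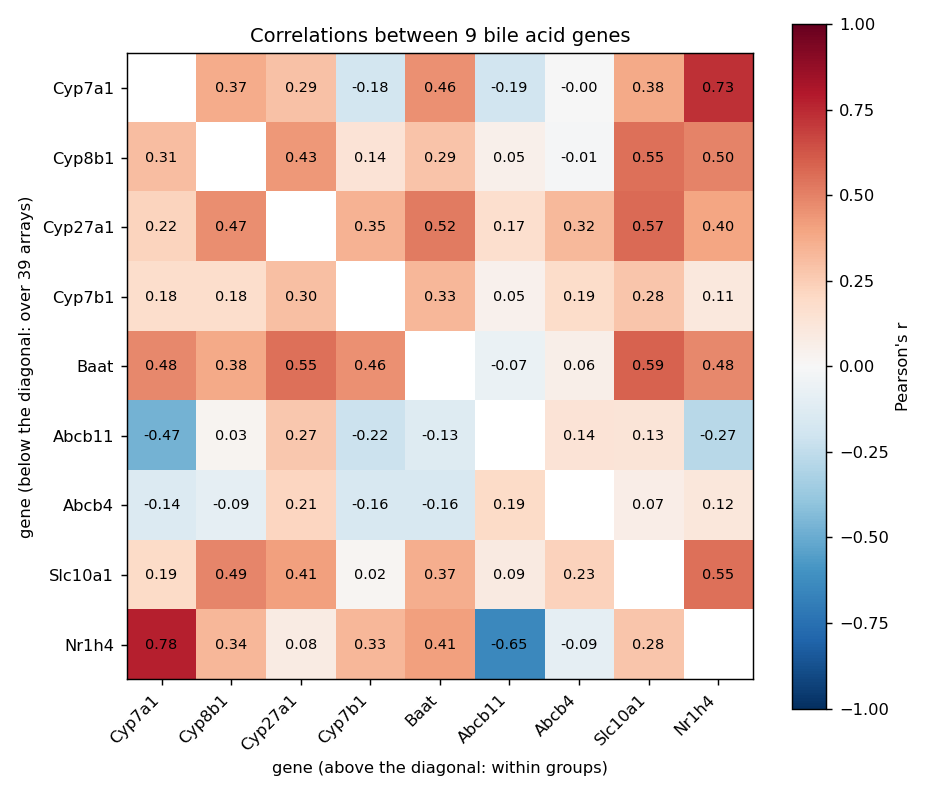
Pearson's r between 9 bile acid genes over the 39 arrays without AL-WIS replicate 1, below the diagonal over arrays and above it after removal of group means. Cyp7a1 with Nr1h4 is the highest value on both sides (0.78 and 0.73), and Abcb11 with Nr1h4 the lowest (-0.65 and -0.27).

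By the same correlation over 39 arrays, the genes most like each member were named. Abcb11 was closest to Insig2, an insulin-repressed retention factor of cholesterol synthesis, at 0.91 (0.73 over 40 arrays, 0.80 within groups), then to Kynu at 0.87 and Clpx at 0.86. Nr1h4 was closest to Timm9, Sirt3 and Atad3a, 3 genes of mitochondrial proteins, at 0.85 each. Cyp7a1 was closest to Hoga1 at 0.81, with Nr1h4 and Ndufaf4 at 0.78. Cyp8b1 was closest to Pon1, Pygl and Paqr9, at 0.86, 0.84 and 0.83. For Cyp7b1 the first gene was Ugt2b1 (0.78), for Baat Dcun1d1 (0.79), for Cyp27a1 Tmem109 (0.69, but 0.24 over 40 arrays), for Slc10a1 Ptgr2 (0.67) and for Abcb4 Mars1 (0.63).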

How the data were processed

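Liver RNA from 40 arrays was analysed from the deposited value table, which holds 1 score per probe and array. Each deposited column has mean 0 and SD 1, and 34 of 35 columns with a usable signal column in their group matched a z-score of log signal within 0.01, so scores were multiplied by 1.51, the median SD of log2 signal over 34 columns. The authors' deposited signal intensities and detection p-values carry GenomeStudio 2011.1 in the submitters' processing notes, and per the file headers they name a group but not a sample. They were used for detection, for the scaling constant and for 2 alternatives, and 6 signal columns labelled AL-NIA, for 5 samples, were not used.

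Probes with a detection p under 0.01 on at least 4 of 34 arrays and with 1 gene symbol were fitted with limma 3.58.1 in R 4.3.3, with 1 mean per group, a shared spread and Benjamini-Hochberg adjustment over 10659 probes in each of 14 comparisons. Of 25697 probes, 23978 had 1 symbol in the platform annotation. The test was checked on simulated data. Alternatives covered the detection filter, 1 probe per gene, scaling, samples in the fit, a replicate block, array weights, moderation and each array left out. No array was imputed.

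All probes of the 10 genes are reported, with array values for those that passed in any comparison and for Abcb11, which passed without 1 array. Other pathway genes are up to 4 passing genes of smallest p per list and comparison. Hsd3b7 was named after its values were seen. The genes and lists were chosen with earlier results of these data known.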

Additional observations from a re-analysis of the deposited data

Results flagged for a closer look

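Of 66 probe-by-group sets of 4 to 10 arrays, 17 held an array whose gap to its nearest neighbour took up an unusually large share of the group's range by Dixon's test, where chance gives about 1 in 20. AL-WIS replicate 1 was that array in 9 of the 17, always as the lowest: Abcb11 (gap share 0.8378), Cyp8b1 (0.8193), Nr1h4 (0.7481), the Cyp27a1 probes ILMN_2960114, ILMN_2620326 and ILMN_2960108 (0.6953, 0.6518 and 0.6508), Cyp7b1 (0.6606), Slc10a1 (0.6491) and Baat (0.6467). Cyp7a1 and Abcb4 were not among them in that array. MF-WIS replicate 4 was the lowest of its group for Cyp8b1 (0.9341).

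Cyp7a1 was low in CR-WIS replicate 3 (0.6555) and in CR-NIA replicate 3 (0.6964). Cyp7b1 was low in MF-NIA replicate 4 (0.6731). Cyp27a1 ILMN_2960114 was low in CR-NIA replicate 7 (0.5737) and high in CR-WIS replicate 8 (0.4822), and ILMN_2960108 was high in AL-NIA replicate 2 (0.8654). Abcb11 was high in AL-NIA replicate 3 (0.7307), where the AL-NIA levels spanned 3.70 to 4.09.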

How the results depend on the processing

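Nr1h4 kept its higher level in CR against AL livers averaged over the diets, and its call, under all 10 other settings (0.48 to 1.01) and with each of the 40 arrays left out (0.46 to 0.66), and Cyp7a1 did so with each array left out and under 9 of 10 settings, the exception being the replicate block (adjusted p = 0.134). Counts of bile acid probes that passed are given next. Here and below, a count with no share of all probes beside it is not read as a result about these genes. Without a detection filter 1 passed in CR-WIS against AL-WIS, 0 in CR-WIS against CR-NIA and 0 in WIS against NIA averaged over the regimens. Of all probes 3.75%, 1.24% and 0.68% passed there, in the same order. With a stricter filter 1 passed in CR-NIA against AL-NIA. Quantile normalization of the scores gave 1 in CR-NIA against AL-NIA and 1 in CR-NIA against MF-NIA. Median centring with scaling by the median absolute deviation gave 5 in MF-NIA against AL-NIA, all lower, 8 in CR-NIA against MF-NIA, all higher, 0 in CR-WIS against CR-NIA and 0 in the averaged WIS against NIA. That scaling moved the median of all probes by -0.17 and 0.19 in the first 2 of these. The split of all probe calls into higher and lower depended on the scaling: it was 594 and 1415 in CR-NIA against MF-NIA, 494 and 741 in CR-NIA against AL-NIA, 125 and 77 in MF-NIA against AL-NIA, 670 and 721 in CR-WIS against AL-WIS, and 1210 and 1586 in the averaged CR against AL, and under that scaling 4276 and 481, 563 and 499, 55 and 2189, 663 and 349, and 2068 and 1046, in the same order. Quantile normalization of the scores gave 766 and 728 in the first, 670 and 662 in the second, 35 and 77 in the third and 1574 and 1299 in the averaged CR against AL. CR-WIS against MF-WIS gave 133 and 223, but 80 and 55 and 181 and 154 under these scalings, and CR-WIS against CR-NIA gave 221 and 127, but 101 and 169 and 166 and 169. Quantile normalized log2 signals gave 866 and 607 in CR-WIS against AL-WIS and 1095 and 1000 in CR-NIA against MF-NIA, and neqc gave 1027 and 985 in the last. Background correction of the signals by neqc gave 1 in CR-WIS against AL-WIS and 1 in CR-NIA against MF-NIA, and quantile normalized log2 signals gave 1 in the last. Neither was run for AL-NIA comparisons, whose signal columns were not used. Fits of the compared groups only gave 3 in CR-NIA against AL-NIA, 0 in CR-WIS against AL-WIS, 3 in CR-NIA against MF-NIA, 1 in CR-WIS against MF-WIS and 3 in CR-WIS against CR-NIA. Array weights gave 4 in CR-NIA against AL-NIA, 3 in CR-NIA against MF-NIA, 2 in CR-WIS against MF-WIS, 3 in CR-WIS against CR-NIA, 4 in the averaged CR against AL and 3 in the averaged WIS against NIA. Without AL-WIS replicate 1, CR-NIA replicate 1 and MF-WIS replicate 4, the counts were 4 in CR-NIA against AL-NIA, 2 in CR-NIA against MF-NIA, 1 in CR-WIS against MF-WIS, 3 in CR-WIS against CR-NIA, 5 in the averaged CR against AL and 0 in the averaged WIS against NIA. Of all probes 27.4%, 32.1%, 5.14%, 12.3%, 32.8% and 4.28% passed there, in the same order. The causes of these shifts were not tested.

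With each array left out in turn the counts ranged from 0 to 4 in CR-NIA against AL-NIA, 1 to 3 in CR-WIS against AL-WIS, 0 to 2 in CR-NIA against MF-NIA, 0 to 2 in CR-WIS against MF-WIS, 0 to 1 in CR-WIS against CR-NIA, 2 to 4 in the averaged CR against AL, 0 to 2 in the averaged WIS against NIA, and 0 to 1 in the diet difference of CR against AL. The highest counts in CR-NIA against AL-NIA, CR-NIA against MF-NIA and the averaged CR against AL came without AL-WIS replicate 1. In that fit 16.2%, 23.9% and 24.9% of all probes passed, in the same order. Omitting any of AL-WIS replicates 1, 5 and 6 or CR-WIS replicates 1 and 10 ended the call of Cyp7a1 in CR-WIS against AL-WIS, and omitting AL-WIS replicate 1 ended that of Nr1h4. The Abcb4 call in CR-WIS against CR-NIA ended when any of CR-NIA replicates 4, 7, 8 and 9 or CR-WIS replicates 4, 8 and 9 was omitted, with adjusted p up to 0.0723, and that of Cyp7a1 in the averaged WIS against NIA in 23 of the 40 omissions.

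Replicate numbers did not pair the arrays: deviations of 79 same-numbered pairs correlated between -0.58 and 0.52, with a median of -0.03. With the replicate block 0 probes passed in CR-WIS against AL-WIS, 0 in CR-WIS against CR-NIA, 1 in the averaged CR against AL and 0 in the averaged WIS against NIA.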
